A study of Mus musculus with 8 samples.

Results

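Integrin and laminin genes were measured by RNA sequencing in outflow tracts, the segment that joins the embryonic ventricles to the great arteries. The members were the rows of the gene table named for an integrin alpha chain (Itga), an integrin beta chain from Itgb1 to Itgb8, or a laminin chain (Lama, Lamb, Lamc). Of its 33495 genes, 34 such rows were analysed, and the 30 with at least 40 raw counts summed over the 8 libraries are described, made up of 15 integrin alpha, 6 integrin beta and 9 laminin genes. The tissue came from mice on the CD-1 background. In the mutant group (4 libraries) Mef2c, a transcription factor of muscle and heart development, was knocked out conditionally in the anterior heart field, whose cells build the outflow tract and the right ventricle. The wild-type group (4 libraries) carried no change named in the labels. Replicates 1 and 2 of each group were sequenced in lane 1 and replicates 3 and 4 in lane 2. The allele, the Cre driver, the stage, and the number of embryos behind a library were not stated in the labels. The p-values measure the spread between these libraries, which may be technical in part. Reads from 4 Y-linked genes numbered 9 in mutant 1 and 3 in wild type 4, against 1595 to 2126 in the other libraries. Neither group therefore came from 1 embryo alone.

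Laminins are heterotrimers of an alpha, a beta and a gamma chain that polymerise into the basement membrane. Integrins are heterodimers of an alpha and a beta chain that bind laminin, collagen, fibronectin or cell surface counter-receptors outside the cell and couple to the actin cytoskeleton inside it. In the developing heart basement membranes surround the myocardium and underlie the endocardium, and the endocardial cushions are rich in fibronectin and other matrix proteins.

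Promoter sequence was available for Itga1, which was higher in the mutants, and for Lama2, whose effect differed between the lanes. They are printed because of the members called in the comparison of groups or of lanes these had an entry in RefSeq's promoter table (GRCm38.p6), and each runs 5′ to 3′ over the 250 bases before the annotated start, with the E box in capitals. The Itga1 promoter lies at chr13:115101965-115102214 and the Lama2 promoter at chr10:27616943-27617192, both on the minus strand.
Itga1: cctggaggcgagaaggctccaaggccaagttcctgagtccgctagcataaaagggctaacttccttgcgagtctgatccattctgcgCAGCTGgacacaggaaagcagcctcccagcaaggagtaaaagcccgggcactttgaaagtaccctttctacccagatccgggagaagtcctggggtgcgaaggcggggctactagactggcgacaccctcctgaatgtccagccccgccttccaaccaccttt
Lama2: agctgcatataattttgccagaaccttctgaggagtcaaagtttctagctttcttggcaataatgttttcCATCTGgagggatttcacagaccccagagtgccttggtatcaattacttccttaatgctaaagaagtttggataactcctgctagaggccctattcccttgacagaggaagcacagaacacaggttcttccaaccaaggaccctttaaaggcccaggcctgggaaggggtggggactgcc

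The E box, CANNTG, is the recognition motif of basic helix-loop-helix factors. It starts 163 bases before the start of Itga1 and 180 bases before that of Lama2. Of the 30 members 18 had an entry, 20 promoters in all, and the E box was found on either strand in 17 of the 20, against 66.2% of all 32851 promoters of this length. The MEF2 consensus, searched on both strands, was found in 0 of the 20 member promoters and in 2.92% of all promoters. GGGCGG, a GC box, was found in 7 of the 20 against 32.7% of all, and TATAAA in 0 against 12.4%. The base composition was 57.6% GC for Itga1 and 47.2% for Lama2, with a median of 52.4% over all promoters.

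Total counts ran from 7138732 to 11012246 per library. By gene-level CPM (counts scaled to library size, with TMM factors), Mef2c lay between 120.4 and 154.3 in the mutants and between 99.46 and 130.1 in the wild types, and the groups overlapped. By the exon test of the authors' deposited table Mef2c had rank 1, and the ratio of the exon that changed most was -3.30 on the log2 scale. Summed CPM of 9 pan-myocardial markers (Tnnt2, Myh6, Ttn and others) were 20320 to 25010 in the mutants and 25780 to 33640 in the wild types, and those of 11 chamber markers (Nppa, Myl2 and others) were 475.4 to 1378 against 1038 to 2032. Those of 9 endothelial and endocardial markers (Cdh5, Tek and others) were 696 to 871.1 against 580.4 to 684.8, and those of 6 hepatic and yolk sac markers (Afp, Apob and others) 11.97 to 60.93 against 2.32 to 10.7. Most of the pan-myocardial sum was Ttn, with a mean of 14200 CPM in the mutants and 19170 CPM in the wild types. The log2 fold change of Ttn was -0.43 (adjusted p = 0.139, edgeR) and that of Myh7 -0.48. For Tnnt2 it was 0.07 and for Myh6 -0.03, so the difference in the sum was not shared by all these markers. In bulk tissue fewer cells of a type and less RNA per cell cannot be told apart. Pax7, Myf5 and Myod1, which mark skeletal muscle, and Foxd3, which marks neural crest, were at 0 counts in all libraries. Other genes of these marker lists were detected, among them Meox1 of the skeletal and somitic list with 3275 reads. Of the neural crest list Ets1 had 9476 reads, Ngfr 1145 and Sox10 84. The 0 counts therefore do not show that either cell type was absent. Each 0 has an upper limit of 3 counts per library, or 0.413 CPM at the shallowest, by counting error only.

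Levels of different genes are compared as CPM per kilobase of exon, in the wild types, as mean ± SD of 4 libraries. Itgb1, the beta chain shared by the collagen, laminin and many fibronectin receptors, was the most abundant member at 193 ± 15.4. Lamc1, the gamma chain of most laminins, followed at 68.8 ± 3.03. Lama4, the alpha chain typical of vessel walls, and Itga6, an alpha chain of laminin receptors, had nearly equal levels of 38.1 ± 3.97 and 38.1 ± 3.09, beside 36.3 ± 2.40 for Itga5, the fibronectin receptor chain. The library ranges of these last 3 genes overlapped. Itga1, Itgav and Itgb3 came next, at 20.8, 20.2 and 19.8 CPM per kilobase, then Itga4 at 12.0, Itgb5 at 11.4, Lamb2 at 11.02 and Itga9 at 10.5.

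The remaining members ran from Lama5, at 6.54 CPM per kilobase, down to Lamc3 at 0.205. Of the 29 neighbouring pairs in the order, 6 had library ranges that did not overlap. These were the steps from Itgb1 to Lamc1, Lamc1 to Lama4, Itga5 to Itga1, Itgb3 to Itga4, Itga9 to Lama5 and Lama1 to Itgb8. Below Itgb8, at 1.31 CPM per kilobase, no neighbours were separated. The row named Lamb1-1, which carries the identifier of Lamb1, falls outside the naming rule. It had 40.5 CPM per kilobase in the wild types, against 11.02 for Lamb2, and its log2 fold change was 0.11 (adjusted p = 0.691, edgeR). Itga10 was not analysed here.

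**Figure D1:**
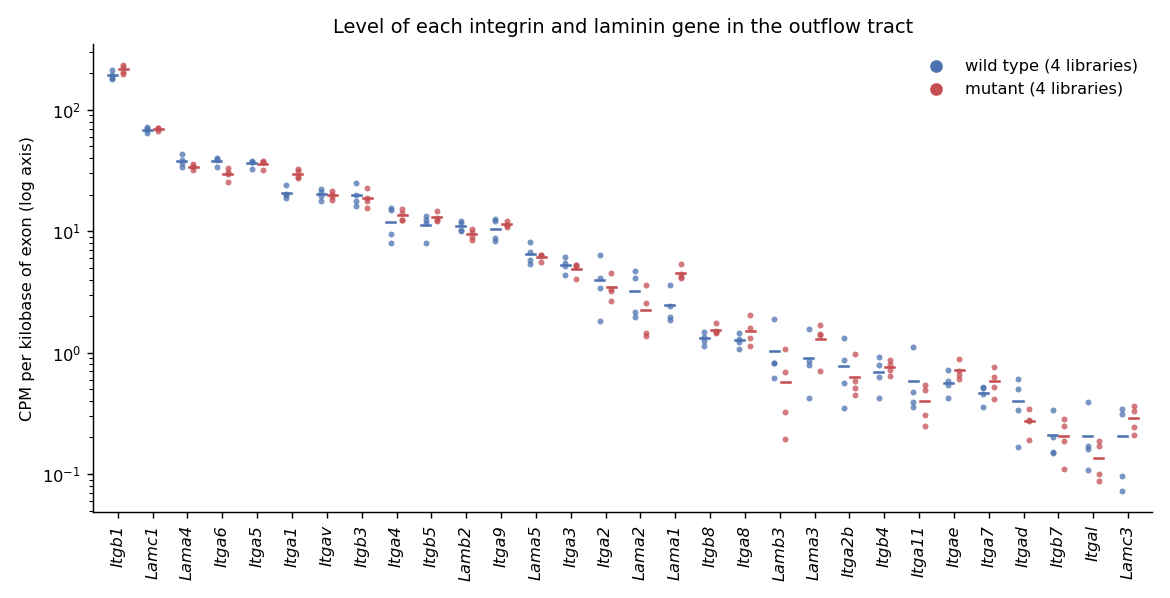
Level of the 30 described genes in each library, as CPM per kilobase of exon on a log axis, ordered by the wild-type mean; points are libraries (wild type blue, mutant red) and lines are group means. Itgb1 and Lamc1 stand above the rest, and the points of most neighbouring genes overlap.

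The comparison of mutant with wild type asks how the outflow tract transcriptome changes with loss of Mef2c in its progenitors. Of the 28 tested members described here, 2 had an adjusted p under 0.05 with edgeR's quasi-likelihood test, Lama1 and Itga1, both higher in the mutants, and 26 did not. Of all 14757 genes tested 1.50% were called, namely 0.562% higher and 0.942% lower. The median log2 fold change was 0.0023 over these members and -0.0059 over all genes. At an unadjusted p under 0.05 there were 4 members, against 11.4% of all genes. The log2 fold change was under 0.3 in size for 17 of the 28, against 77.1% of all genes. Itgal and Itgb7 had too few reads to be tested.

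**Figure D2:**
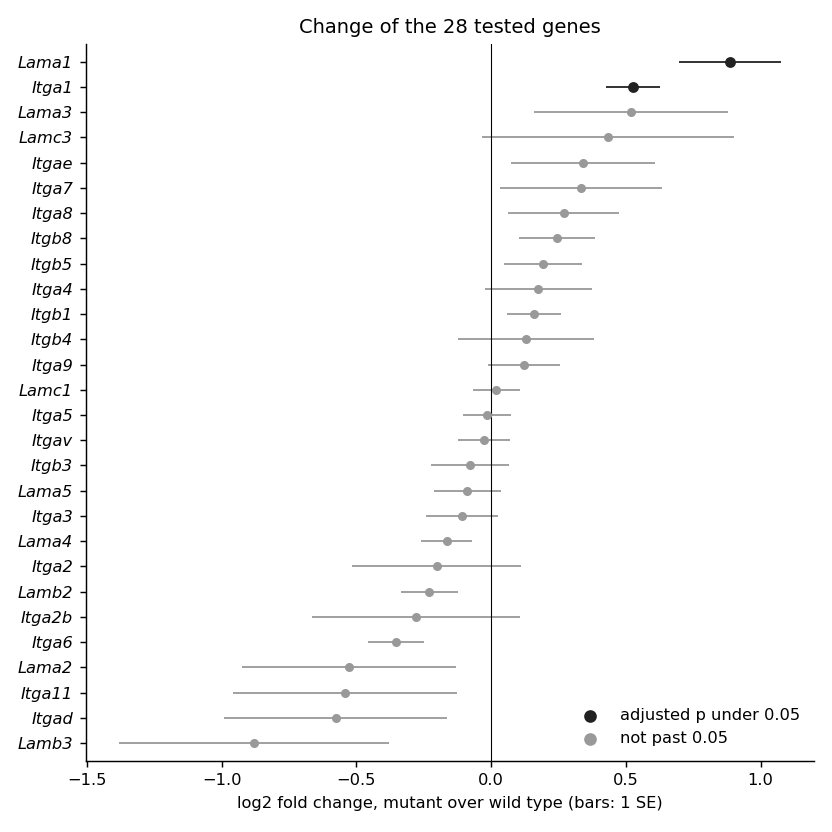
Log2 fold change of mutant over wild type for the 28 tested genes, with bars of 1 SE, from edgeR; black points have an adjusted p under 0.05. Lama1 (0.89) and Itga1 (0.53) lie farthest to the right, and the widest bars belong to low genes such as Lamb3 and Lamc3.

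Among the laminin alpha chains 1 of 5 was called. Lama1, the alpha chain of the earliest embryonic basement membranes, is listed on chromosome 17 from 68046605 to 68171985, plus strand, in mm9 (ENSMUSG00000032796). It was at 51.3, 40.04, 42.2 and 39.6 CPM in mutants 1 to 4 and at 18.7, 23.1, 17.8 and 34.3 CPM in wild types 1 to 4. The groups did not overlap, and wild type 4 stood nearest the mutants. Lama1 rose by 0.89 ± 0.19 on the log2 scale (SE, n = 4 against 4, adjusted p = 0.0397, edgeR). The call was lost when any library other than wild type 4 was left out, with adjusted p between 0.0580 and 0.147, and stood at 0.00246 without wild type 4. It was also lost with lane (0.0715) or the chamber marker level (0.0917) as a covariate. The hepatic and yolk sac markers, all 6 of which were detected, were higher in sum in every mutant library than in every wild type, and their part in the difference was not tested.

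The other alpha chains were not called. Lama4, the most abundant per length, was at 204.4, 203.3, 189.8 and 216.2 CPM in mutants 1 to 4 and 258.1, 232.6, 219.3 and 201.8 CPM in wild types 1 to 4, with groups that overlapped. Its log2 fold change was -0.16 ± 0.09 (adjusted p = 0.573, edgeR). Lama5, widespread in embryonic basement membranes, had a log2 fold change of -0.09 and Lama3, the epithelial alpha chain, 0.52. Lama2, the alpha chain of muscle basement membrane, had -0.53 ± 0.40 as its log2 fold change (adjusted p = 0.696, edgeR) with libraries that split by lane, and the value ran from -0.86 without mutant 2 to -0.30 without wild type 3.

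Per length, Lama4 made up 74.3% ± 6.17 of laminin alpha chain transcripts in the wild types and 70.5% ± 2.64 in the mutants (SD, n = 4 each). The share of Lama1 was 4.82% ± 1.59 in the wild types and 9.42% ± 1.12 in the mutants, and the groups did not overlap, from 3.59% to 7.03% against 8.49% to 10.8%. Lama5 held 12.7% in the wild types and 12.8% in the mutants. These shares restate the counts above and were not tested.

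Neither laminin beta chain was called. Lamb2, a chain of muscle and vessel basement membranes, was at 57.6, 54.8, 49.5 and 46.8 CPM in mutants 1 to 4 and 67.2, 55.3, 56.7 and 65.0 CPM in wild types 1 to 4. The groups overlapped through mutant 1, which lay above wild types 2 and 3. Its log2 fold change of -0.23 ± 0.10 passed 0.05 only before adjustment (adjusted p = 0.436, edgeR). Lamb3, an epithelial chain with 234 reads in all, had -0.88 ± 0.50 as its log2 fold change (adjusted p = 0.574, edgeR).

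Lamc1 was at 530.8, 541.0, 510.0 and 544.9 CPM in mutants 1 to 4 and 530.9, 550.3, 522.0 and 494.9 CPM in wild types 1 to 4. The groups overlapped widely, with 0.02 ± 0.09 as the log2 fold change (adjusted p = 0.963, edgeR). Lamc3, another gamma chain, had 102 reads in all and a log2 fold change of 0.43 ± 0.47. Epithelial markers, 7 genes among them Epcam, Cdh1 and Krt8, summed to 49.0 to 57.9 CPM in the mutants and 49.5 to 158.5 CPM in the wild types, all 7 detected, with the highest sum in wild type 4. Their part in the levels of the epithelial chains Lama3 and Lamb3 was not tested.

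Among the 3 collagen receptor alpha chains 1 was called. Itga1, whose product pairs with that of Itgb1 to bind collagens such as the basement membrane type, is listed on chromosome 13 from 115750287 to 115892172, minus strand, in mm9 (ENSMUSG00000042284). It was at 109.8, 131.8, 126.0 and 113.3 CPM in mutants 1 to 4 and 97.5, 80.8, 80.3 and 75.01 CPM in wild types 1 to 4. The groups did not overlap, and wild type 1 was the highest of its group. Itga1 rose by 0.53 ± 0.10 on the log2 scale (SE, n = 4 against 4, adjusted p = 0.0204, edgeR), and the call was lost without mutant 2 (adjusted p = 0.0735), mutant 3 (0.0876) or wild type 3 (0.0678).

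Pelo, a gene on the same strand inside the span of Itga1, and a transcript named AC175538.1 together held reads equal to 25.1% of the count of Itga1. Whether reads were shared between them was not tested, and Pelo itself had 0.23 as its log2 fold change (adjusted p = 0.579, edgeR). The 9 endothelial and endocardial markers, all detected, were higher in sum in every mutant library. Of these 9 genes 1 was called, the receptor Tek, which rose by 0.74 on the log2 scale (adjusted p = 0.00130, edgeR), from a mean of 102.0 CPM in the wild types to 169.9 in the mutants. The other 8 had log2 fold changes from -0.87 for Emcn to 0.38 for Tie1. Their part in the difference of Itga1 was not tested. Itga2, which lies 27996 bases from Itga1 and encodes another collagen receptor chain, had a log2 fold change of -0.20 ± 0.31, and Itga11, with 162 reads, -0.54 ± 0.42.

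**Figure D3:**
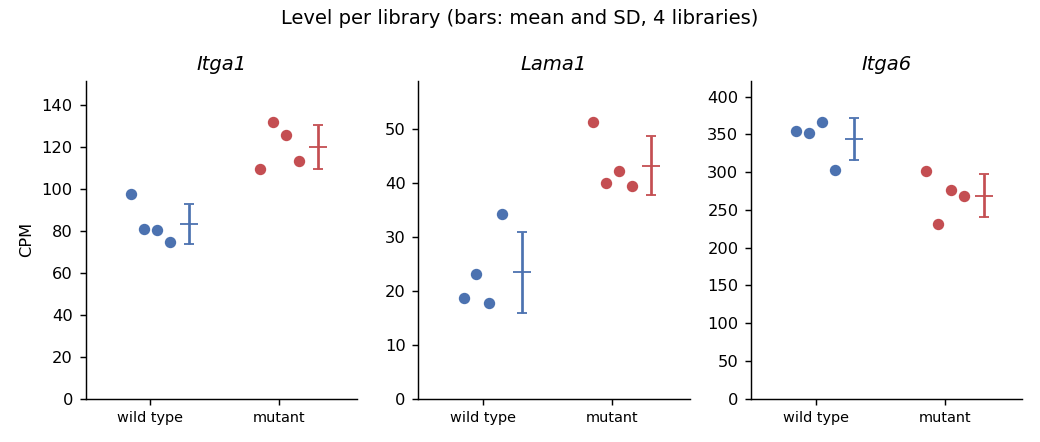
CPM of Itga1, Lama1 and Itga6 in each library, with the mean and SD of 4 libraries per group beside the points; each axis starts at 0. In these 3 genes no mutant library overlaps a wild type, with mutants higher for Itga1 and Lama1 and lower for Itga6.

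None of the 4 laminin receptor genes was called. Itga6, the most abundant of them, was at 301.0, 231.6, 276.0 and 267.9 CPM in mutants 1 to 4 and 354.5, 352.0, 365.8 and 302.9 CPM in wild types 1 to 4. The groups did not overlap, though mutant 1 and wild type 4 nearly met. Its log2 fold change was -0.35 ± 0.10 (adjusted p = 0.149, edgeR), under 0.05 before adjustment, and DESeq2 called it with an adjusted p of 0.0310. Groups did not overlap for 3 described members, Itga1, Itga6 and Lama1, and 6.72% of all tested genes had no overlap. Itga3, Itga7 and Itgb4, whose products also serve in laminin receptors, had log2 fold changes of -0.11, 0.33 and 0.13.

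Of the 7 genes for receptors of fibronectin, vitronectin and related ligands, none was called, and all 7 had log2 fold changes under 0.3 in size, from -0.28 for Itga2b to 0.27 for Itga8. Itga5 was at 139.5, 162.6, 163.0 and 165.0 CPM in mutants 1 to 4 and 163.6, 143.4, 164.4 and 165.2 CPM in wild types 1 to 4. A single low library in each group, mutant 1 and wild type 2, set the range of both. Its log2 fold change was -0.01 ± 0.09 (adjusted p = 0.974, edgeR). Itgav, which encodes the alpha chain shared by vitronectin receptors, had -0.03 ± 0.10, and its beta partners Itgb3, Itgb5 and Itgb8 had -0.08, 0.19 and 0.25.

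Itgb1 was at 779.4, 881.2, 846.4 and 745.8 CPM in mutants 1 to 4 and 738.5, 686.2, 807.9 and 684.1 CPM in wild types 1 to 4. The groups overlapped, with 0.16 ± 0.10 as the log2 fold change (adjusted p = 0.618, edgeR). The receptors of fibronectin and Vcam1 with the alpha chains Itga4 and Itga9 were not called either, at 0.17 ± 0.20 and 0.12 ± 0.13. Itga4, the more abundant of the pair, was at 196.3, 159.3, 183.2 and 159.1 CPM in mutants 1 to 4 and 193.4, 103.8, 199.4 and 121.5 CPM in wild types 1 to 4, and the wild types fell into a high and a low pair across both lanes.

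Leukocyte integrins sat at the lower end. Itgae was at 2.998, 2.797, 3.239 and 4.095 CPM in mutants 1 to 4 and 2.689, 3.300, 1.926 and 2.459 CPM in wild types 1 to 4, with groups that overlapped and a log2 fold change of 0.34 ± 0.27. Its 208 reads compare with 1036 of Gsg2, which overlaps it on the opposite strand, and no source used here states whether counting used strand, so its level is uncertain. Itgad had 96 reads and Itgal 75. Just inside the minimum lay Itgb7 with 41 reads, at 0.777, 0.508, 0.687 and 0.2997 CPM in mutants 1 to 4 and 0.927, 0.412, 0.550 and 0.410 CPM in wild types 1 to 4, which overlapped. Just outside it lay Itgax and Itgb2 with 37 reads each, Itgb6 with 35 and Itgam with 30.

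The effect was then taken in each lane from a fit with group, lane and their interaction. In lane 1 the members called were Lama1 and Itga9, both higher, against 4.16% of all genes called and 1.12% called higher. In lane 2 Lama2 was called, lower in the mutants, against 0.671% called and 0.400% called lower. The interaction, which tests the difference between the lanes, was called for 1 member, Lama2, which was also the only gene called of 14757 (0.00678%), while 2445 genes (16.6%) had an unadjusted p under 0.05 and 2 members did. That count of 1 gene ran from 0 to 512 with 1 library left out, with 512 without mutant 3, 241 without wild type 1 and 0 without mutant 2, mutant 4 or wild type 4. The signs of both lane effects differed for 9 of the 28 members, against 54.6% of all genes. A lane held different libraries of each group, so lane and library cannot be told apart.

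**Figure D4:**
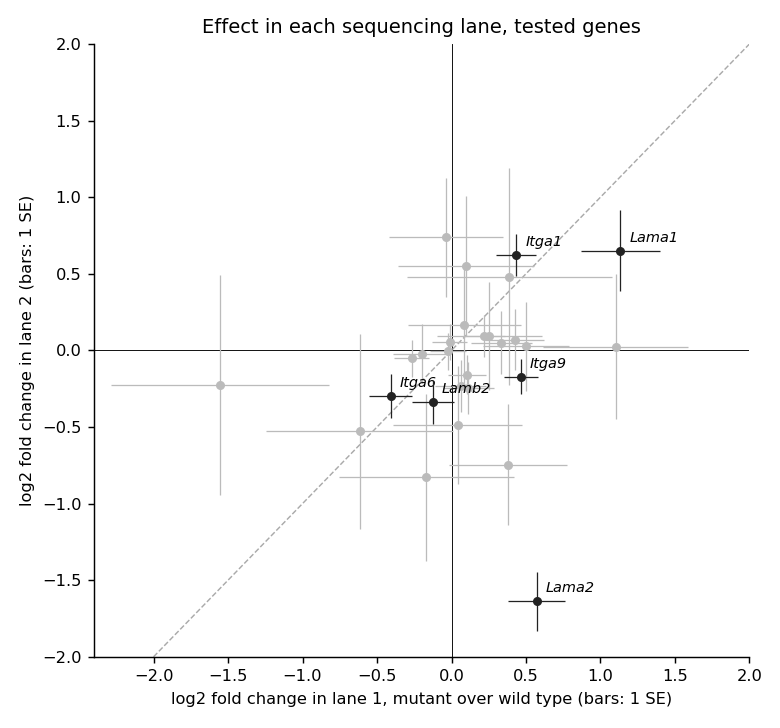
Log2 fold change of mutant over wild type in lane 1 (horizontal) and lane 2 (vertical) for the 28 tested genes, with bars of 1 SE; the dashed line marks equal effects. Labelled black points have an unadjusted p under 0.05 in the comparison of groups or of lanes, and Lama2 lies farthest from the line, at 0.57 in lane 1 and -1.64 in lane 2.

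Lama2 lies on chromosome 10 from 26701094 to 27336748, minus strand, in mm9 (ENSMUSG00000019899), and its promoter is printed above. It was at 24.8, 35.2, 13.4 and 14.1 CPM in mutants 1 to 4 and 19.2, 21.2, 45.4 and 40.03 CPM in wild types 1 to 4. In lane 1 both mutants were above both wild types, and in lane 2 both were below, with the wild types of lane 2 highest of all 8 libraries and the mutants of lane 2 lowest. The log2 fold change was 0.57 ± 0.19 in lane 1 (adjusted p = 0.105, edgeR), or 0.30 without mutant 2, and -1.64 ± 0.19 in lane 2 (adjusted p = 0.00282, edgeR). The lane 2 effect minus the lane 1 effect was -2.21 ± 0.27 (adjusted p = 0.0309, edgeR).

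The lane 2 effect of Lama2 was called in all 20 alternatives run, between -1.74 and -1.14. The interaction kept its sign in all 19 alternatives run for it, between -2.55 and -1.53, but lost its call in 7, among them without mutant 2 (adjusted p = 0.219), mutant 4 (0.176) or wild type 4 (0.1001), and with the chamber marker level as a covariate (0.984). Of the cell type markers, the 6 leukocyte genes summed to 24.4 and 24.3 CPM in wild types 3 and 4 and to between 8.80 and 11.5 CPM in the other 6 libraries, all 6 markers being detected. The 7 epicardial markers, all detected, summed to 217.9, 209.5, 157.3 and 114.8 CPM in wild types 1 to 4 and 271.4, 204.4, 267.7 and 272.6 CPM in mutants 1 to 4, and 4 of the 6 tested had an unadjusted interaction p under 0.05, all with the opposite sign to Lama2. The interaction had the same sign as that of Lama2 in all 7 cushion mesenchyme markers. Their sums were 6940, 6843, 6528 and 5320 CPM in mutants 1 to 4 and 7095, 4534, 6886 and 5087 CPM in wild types 1 to 4. Of these 7 markers, Col3a1, a fibrillar collagen chain, had 0.96 in lane 1 and -0.34 in lane 2 as its log2 fold change (interaction adjusted p = 0.0501, edgeR). An unadjusted interaction p under 0.05 was found for 2 of the 7. The sign was also that of Lama2 in all 6 erythroid, 3 neural crest, 3 leukocyte and 2 platelet markers tested. Among these Ets1 alone had an unadjusted interaction p under 0.05. The sign was opposite to that of Lama2 in the 10 chamber, 9 pan-myocardial and 7 smooth muscle markers tested. Of these, 4, 4 and 3 had an unadjusted interaction p under 0.05. Signs were mixed among the endothelial and endocardial markers, with 6 as in Lama2 and 3 opposite. Pecam1 alone of this list had an unadjusted interaction p under 0.05. The 3 epithelial and 3 Schwann cell and glial markers tested were mixed too, with 2 as in Lama2 and 1 opposite in each list. Opposite signs were found for all 3 hepatic and yolk sac markers tested. The 1 skeletal and somitic marker tested, Meox1, had the sign of Lama2. Smooth muscle markers, all 7 detected, summed to 2263 to 3381 CPM in the mutants and 2700 to 3495 CPM in the wild types. The part of these markers in the Lama2 values was not tested.

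Itga9 was at 87.3, 94.3, 87.2 and 83.1 CPM in mutants 1 to 4 and 63.5, 68.2, 98.0 and 94.0 CPM in wild types 1 to 4. The mutants were alike in both lanes, and the wild types of lane 1 were low. The log2 fold change was 0.46 ± 0.11 in lane 1 (adjusted p = 0.0396, edgeR) and -0.17 ± 0.11 in lane 2 (adjusted p = 0.735, edgeR). The difference of -0.64 had an adjusted p of 0.0943 (edgeR) and passed 0.05 only before adjustment, so it was not called, and the lane 1 call was lost in 13 of 20 alternatives. Genes on the opposite strand inside its span held reads equal to 8.68% of its count.

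**Figure D5:**
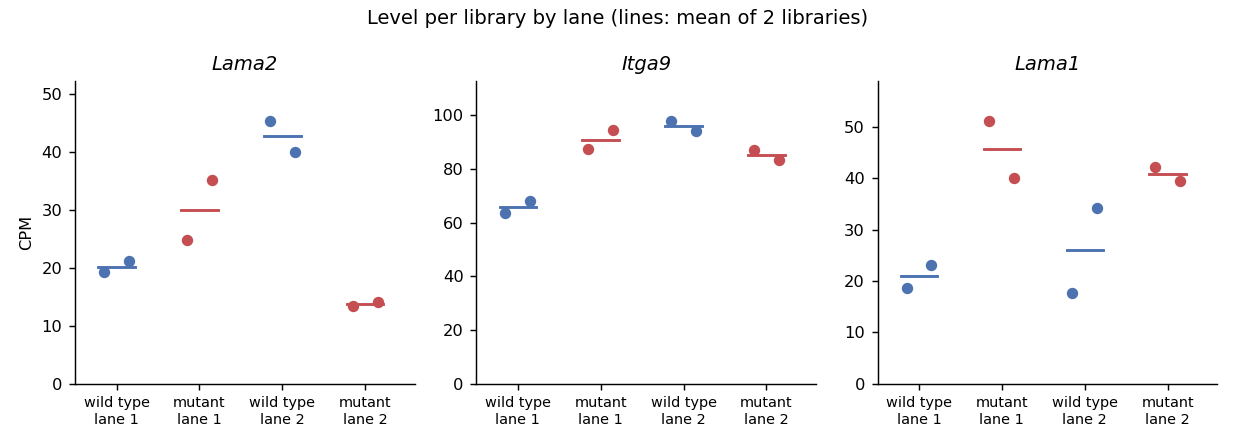
CPM of Lama2, Itga9 and Lama1 in each library, by group and lane, with lines at the mean of 2 libraries and axes that start at 0. Lama2 changes direction between the lanes, Itga9 differs between lanes in the wild types, and the Lama1 mutants lie above the wild types of their lane in both.

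Lama1 and Itga1, called without regard to lane, had the same sign in both lanes. Lama1 had a log2 fold change of 1.13 ± 0.27 in lane 1 (adjusted p = 0.0397, edgeR) and 0.65 ± 0.26 in lane 2 (adjusted p = 0.476, edgeR). Its lane 1 call was lost in 9 of 20 alternatives, and its lane 2 value was 0.24 without wild type 3 and 1.20 without wild type 4. Itga1 had 0.44 ± 0.13 and 0.62 ± 0.13 (adjusted p = 0.0862 and 0.0611, edgeR). Their interactions had adjusted p of 0.557 and 0.665 (edgeR), so no difference between the lanes was shown for them.

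The authors' deposited table holds a chi-square test on exon counts with libraries pooled by group. In it 4 of the 30 members had an exon score above 0, as did 605 of the 33495 genes. These sets are unlike, since every member had at least 40 reads and only 14757 of the 33495 genes had enough to be tested here. Lama2 ranked highest of the 4 members, at 136 of all genes with a score of 53.4. Its exon that changed most had -1.91 on the log2 scale. In the authors' deposited table Lama5 had an exon score of 11.9, Lama3 2.42 and Lamc3 1.52, so all 4 were laminin chains. A false discovery rate under 0.05 was given in the authors' deposited table for 2 members, with scores (higher is more significant) for Lama1 (52.9) and Itga1 (18.5).

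Genes that work with the members were read from 4 lists. The lists were chosen with earlier results of these data known, so counts of called genes beside the share of all genes are no test of a list. Of 13 tested interstitial and cell surface ligands 3 were called, all higher, where 1.50% of all genes were called and 0.562% were called higher. Ctgf and Cyr61, matricellular proteins that bind integrins, rose by 0.97 ± 0.18 and 0.65 ± 0.14 on the log2 scale (adjusted p = 0.0204 and 0.0354, edgeR). Vcam1, the cell surface ligand of the Itga4 receptor, rose by 0.69 ± 0.13 (adjusted p = 0.0217, edgeR), from 52.3 ± 11.01 CPM in the wild types to 84.6 ± 6.87 in the mutants. Fn1, fibronectin and the most abundant of this list per length, had 0.24 ± 0.10 as its log2 fold change (adjusted p = 0.412, edgeR). The median of the list was 0.19 against -0.0059 over all genes, and by lane it was 0.42 in lane 1 and 0.08 in lane 2.

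Of 16 tested basement membrane genes 1 was called. Fras1, which encodes a matrix protein of embryonic epithelial basement membranes, fell by 0.59 ± 0.09 on the log2 scale (adjusted p = 0.00499, edgeR), from 216.6 ± 18.2 to 144.3 ± 8.45 CPM. Sparc, the most abundant, had 0.26 as its log2 fold change (adjusted p = 0.419, edgeR), and the list's median was -0.02. Of 30 tested genes of the adhesion plaque, the link from integrins to actin, 1 was called. Itgb1bp2, the muscle protein melusin that binds the Itgb1 tail, fell by 1.00 ± 0.14 (adjusted p = 0.00366, edgeR), from 27.7 ± 2.51 to 13.8 ± 2.29 CPM, beside pan-myocardial markers of which 1 of 9, Myh7, was called (-0.48, adjusted p = 0.0325, edgeR). The others ran from -0.47 for Nkx2-5 to 0.07 for Tnnt2, and their part was not tested. Zyx, the most abundant, had 0.20 and the list's median was -0.04. None of 13 other laminin receptors and the enzymes that modify them was called, and their median was 0.03. Lgals1, the most abundant of them, had -0.02.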

How the data were processed

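Per the labels, a Qiagen kit was used for RNA isolation and NuGEN chemistry for the libraries. Alignment was to mm9 with TopHat2 2.0.4, per the submitters' processing notes. The authors deposited raw counts per gene and library, normalized log2 values per library, 1 pooled FPKM per group, a log2 fold change, scores for p-values and false discovery rates that are 10 times the negative log10 by the thresholds in the file headers, and an exon test score, made with USeq per the file headers. No source used here names the counting tool or states its use of strand. The exon score has no stated scale and served only to rank genes.

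The test was edgeR 4.0.16 under R 4.3.3 on the counts (filterByExpr, TMM, robust quasi-likelihood test, two-sided, Benjamini-Hochberg over 14757 genes, threshold 0.05), on group alone and on group by lane. The lane effects share 1 estimate of the spread over 8 libraries. Each SE came from the fold change and its F statistic. CPM used TMM-scaled library sizes, and CPM per kilobase the deposited exon length. Deposited starts count from 0 and were shifted by 1.

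Members and lists were chosen with earlier results of these data known. Values per library are given for members with an unadjusted p under 0.05 in the comparison of groups or of lanes, for the most abundant member of each role, and for those nearest 40 counts. Columns of per-sample values left unmapped numbered 0. Of the rows that match the naming rule 1 is not reported here and is left out of every count of members, but not of the fits. All 34 other identifiers matched the same symbol in the gene name table. No library repeated another of its group, as chi-square over degrees of freedom ran from 5.77 to 20.7 between replicates. Alternatives were RLE scaling, library size alone, no filter, at least 1 CPM in 4 libraries, DESeq2 1.42.0, limma-voom and limma-trend (limma 3.58.1), a replicate block, lane or chamber marker level as a covariate, each lane alone and libraries left out. The fits were tested on simulated counts. In the comparison of groups, over 14567 genes, edgeR recovered 40% of genes changed 1.5-fold, 90% at 2-fold and 100% at 4-fold. For the interaction, over 14588 genes, it recovered 0% at 1.5-fold, 24% at 2-fold and 84% at 4-fold. Of the 179 genes called in the simulated comparison of groups 14 were unchanged, and of the 113 called for the interaction 12 were. The changed genes were drawn only from those with more reads, so recovery was not measured for low members such as Itgad, with 96. The reads carried no molecular identifiers, so floors cover counting error only.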

Additional observations from a re-analysis of the deposited data

Results flagged for a closer look

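The difference of Lama2 between the groups was not the same in both lanes by an interaction test. The log2 fold change in lane 2 minus that in lane 1 was -2.21 (adjusted p = 0.0309, edgeR). Both mutants lay above both wild types in lane 1 and below them in lane 2. The call was lost in 7 of 19 alternatives. A lane held different libraries of each group, so lane and library cannot be told apart.

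Of 60 groups of 4 libraries searched, 4 (6.67%) had a library far from the other 3 by Dixon's ratio, where chance flags about 5%. Itga3 was low in mutant 1, at a log2 CPM of 4.54. Itga5 was low in mutant 1, at 7.13, and in wild type 2, at 7.17. Lama5 was low in mutant 3, at 6.01.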

How the results depend on the processing

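The number of called members in the comparison of groups was 2. It was 0 with the replicate block, 1 (Itga1) with lane or the chamber marker level as a covariate or without wild type 2 and mutant 4, and 1 (Lama1) without mutant 1 and wild type 4, the libraries with 9 and 3 reads from 4 Y-linked genes, and ran from 0 to 2 with 1 library left out. The deviations of same-numbered samples correlated between -0.29 and 0.22, and 1 of 4 pairs exceeded 0.1. Same-numbered samples share a lane, and the labels state no other pairing. With 4 pairs these correlations cannot exclude one. The replicate block gave 76 called genes in all against 222, and 110 to 231 were called with 1 library left out, the lowest without mutant 3.

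For the interaction, 1 member was called. The number was 2 with no filter (Lama2 and Itga2), and 0 with limma-voom, limma-trend, the chamber marker level as a covariate, and without wild type 2 and mutant 4, which had the highest chamber marker level of their groups. It ran from 0 to 1 with 1 library left out. Over all genes the interaction calls numbered 1145 with no filter, 393 with DESeq2, 0 with limma-voom and 2 with the replicate block, and ran from 0 to 512 with 1 library left out, with 512 without mutant 3, 241 without wild type 1 and 16 without mutant 1.

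In lane 1, where 2 members were called, the number was 6 with no filter, 1 with limma-voom, limma-trend, the replicate block or lane 1 fitted alone, 0 with the chamber covariate and without either pair of libraries, and 0 to 2 with 1 library left out. In lane 2, where 1 was called, it was 3 with no filter, 2 (Itga1 and Lama2) with DESeq2 or the chamber covariate, and 1 to 2 with 1 library left out. The log2 fold change of Lamb2 in lane 1, -0.13, became 0.031 without wild type 1 and ran from -0.25 to 0.031 with 1 library left out. The cause of these moves was not tested. All genes called in lane 1 (614) ran from 37 without mutant 2 to 867 without mutant 4, and those in lane 2 (99) from 31 without mutant 4 to 158 without wild type 2. All genes called in the comparison of groups numbered 440 with DESeq2. Of the 5 most abundant members per length, 4 remained among the 5 highest by CPM without division by length and 5 by the pooled FPKM in the authors' deposited table. Itgal and Itgb7, with 75 and 41 reads, were too shallow to test. The widest errors were those of Lamb3 and Lamc3, with 234 and 102 reads, but Lama2, with 1761 reads, had an SE of 0.40.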
